A study of Mus musculus with 12 samples.

Results

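The compound Hit 2 was compared with its solvent in the cerebellum of spinocerebellar ataxia type 1 knock-in mice, by RNA sequencing of 4 mice given the compound (Het Hit 2) and 4 given dimethyl sulfoxide alone (Het DMSO). These 8 libraries, of the 12 in the series, were chosen by the genotype and treatment in their labels. Every one of the 8 mice was heterozygous for a knock-in Atxn1 allele (Atxn1154Q/2Q in the labels, Q standing for glutamine), with 1 copy that codes for a greatly lengthened glutamine tract and 1 that codes for a tract of 2, so vehicle and compound mice carry the same disease allele. Dosing began at 18 weeks of age with daily intraperitoneal injections on 5 days, then 2 rest days and 5 more days of injection, and the cerebellum was collected at 20 weeks on the day of the last injection. The compound was dissolved at 25 mg/ml in DMSO, and DMSO stayed under 4 ml/kg in either group. The 4 remaining libraries, from wild-type mice given DMSO (WT DMSO), served to estimate the spread between animals. Libraries are named by the animal numbers in the labels: 410, 421, 422 and 430 for Het Hit 2, and 409, 411, 420 and 429 for Het DMSO.

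Spinocerebellar ataxia type 1 is a dominant polyglutamine disease in which a lengthened CAG repeat in the coding sequence of ATXN1 gives a long glutamine tract, and Purkinje cells, the output neurons of the cerebellar cortex, are lost over time. Ataxin-1, the encoded protein, binds the transcriptional repressor Capicua, and the RNA of the lengthened allele can itself fold and bind splicing factors such as the muscleblind proteins. The series concerns small molecules selected to lower the abundance of RNAs with expanded CAG repeats, so the comparison asks which transcripts differ after treatment, those with CAG runs among them.

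Libraries held 15855800 to 45265700 reads assigned to genes in the 8 knock-in mice. Vehicle libraries 409 and 411 stood apart from the other 6. In library 409, genes of the mitochondrial genome took 0.0795% of gene reads against 1.85% to 2.81% in the other 7. Library 411 had 0.606 CPM (a gene's reads scaled to a common library size) of Gabra6, a receptor subunit of cerebellar granule cells, against 227 to 388 CPM in the other 7, and 0.555 CPM of the Purkinje cell gene Pcp2 against 70.2 to 158 CPM. The defining neuronal markers of cerebellar cortex are thus nearly absent from library 411, which goes against its label as cerebellum, and every value with all libraries includes it. The share of genes more than 2-fold from the mean of the other knock-in libraries, 409 and 411 left out, was 25.7% in 409 and 23.4% in 411, against 2.69% to 9.53% in the other 6. The comparison was therefore fitted with all 4 vehicle libraries and again without these 2, which leaves libraries 420 and 429 as the only vehicle animals. Xist, expressed from the inactive X chromosome of females, lay between 0.0494 and 0.289 CPM in all 8 libraries.

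Mouse transcripts with uninterrupted CAG runs give the compound a set of native candidates besides Atxn1. The longest run in any transcript was read for each gene from GENCODE M21 (genome GRCm38), whose transcripts matched 20066 of 20105 genes tested. Runs of polyglutamine disease genes are short in the mouse reference, and longer runs occur in other neuronal transcripts. The sequences below are shown as examples, 5′ to 3′ with the CAG run in capitals. The results on repeat length rest on all genes tested that had a matched transcript. The first 3 are coding runs of polyglutamine disease genes, and the next 2 are long coding runs in well expressed genes. The last 2 belong to genes picked because their levels were lower under Hit 2 when 409 and 411 were left out.
Atxn2: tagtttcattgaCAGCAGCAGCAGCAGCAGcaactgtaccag
Atxn3: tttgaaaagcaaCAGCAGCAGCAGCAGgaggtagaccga
Htt: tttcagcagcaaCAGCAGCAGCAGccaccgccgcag
Kmt2d: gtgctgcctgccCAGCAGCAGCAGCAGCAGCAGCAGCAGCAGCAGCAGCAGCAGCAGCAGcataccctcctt
Gigyf2: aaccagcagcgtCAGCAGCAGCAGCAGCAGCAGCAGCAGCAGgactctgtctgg
Atrx: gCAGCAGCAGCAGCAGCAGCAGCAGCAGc
Bmp6: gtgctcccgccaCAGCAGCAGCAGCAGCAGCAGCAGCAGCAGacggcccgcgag
The run has 6 units in Atxn2, 5 in Atxn3, 4 in Htt, 16 in Kmt2d, 10 in Gigyf2, 9 in Atrx and 10 in Bmp6. All lie in coding sequence except that of Atrx, which lies in a 5′ UTR. The knock-in tract itself is not in this reference.

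No gene passed the threshold between Het Hit 2 and Het DMSO, an adjusted p of 0.05 in edgeR's quasi-likelihood test with Benjamini-Hochberg adjustment over all genes. With all 4 vehicle libraries, 0 of 19378 genes tested were called (0%), and the smallest adjusted p was 0.898. Unadjusted p-values fell below 0.05 for 301 genes (1.55%), of which 146 were higher (0.753%) and 155 lower (0.8%) in Het Hit 2. Leaving out 409 and 411, edgeR again called 0 of 20105 genes (0%), with a smallest adjusted p of 0.983 and 748 genes (3.72%) at an unadjusted p under 0.05, of which 422 were higher (2.1%) and 326 lower (1.62%). A uniform spread of p-values would give 969 and 1005 genes under that bound. DESeq2 called 0 genes with all libraries (442 at an unadjusted p under 0.05) and 4 without 409 and 411 (806), of which 3 are described below.

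The width of the intervals shows what a lack of calls covers. With all libraries the 95% interval of the log2 fold change had a median half-width of 0.57, and 65% of genes had an interval wholly within 2-fold either way. Leaving them out, the half-width was 0.40 and the share 72.8%. Among the 2444 genes with at least 100 CPM the half-width was then 0.20, and 98.4% of them had an interval within 2-fold. Among 3429 genes under 1 CPM only 10.1% did. The median log2 fold change of all genes was -0.04 with all libraries and 0.01 without 409 and 411.

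**Figure D1:**
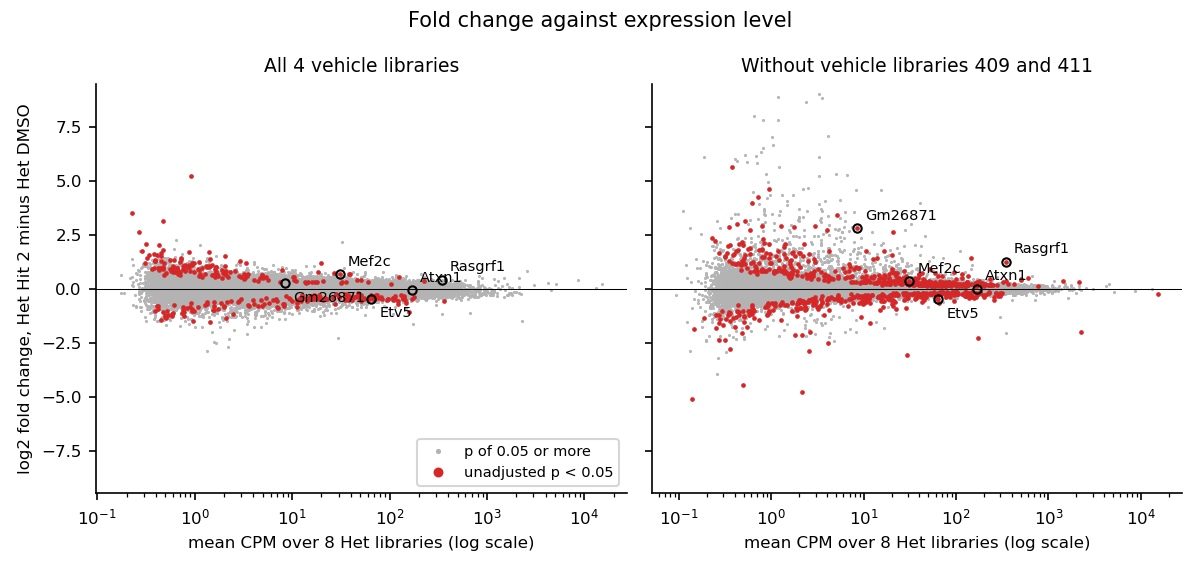
Log2 fold change of Het Hit 2 minus Het DMSO (vertical axis) against mean CPM over the 8 knock-in libraries (horizontal axis, log scale), 1 point per gene, with all vehicle libraries on the left and without 409 and 411 on the right. Red points have an unadjusted p under 0.05, none passed the adjusted threshold, and circles mark genes named in the text, with Atxn1 at -0.05 and 0.01.

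Atxn1, the gene that carries the expanded tract, had similar levels in both groups. Its CPM was 181, 166, 178 and 137 under Hit 2 (410, 421, 422, 430) and 186, 172, 171 and 157 under DMSO (409, 411, 420, 429). The means were 165 ± 20.3 (SD, n = 4) and 172 ± 11.7 (SD, n = 4), the ranges overlapped, and the lowest value was in Hit 2 library 430. The log2 fold change was -0.05 (standard error 0.12, 95% interval -0.31 to 0.21, edgeR adjusted p = 0.923) with all libraries and 0.01 (standard error 0.12, interval -0.26 to 0.27, edgeR adjusted p = 0.998) without 409 and 411. In linear terms the second interval runs from 0.837 to 1.21 of the vehicle level. The counts sum the expanded and the normal allele, so a change in 1 allele is seen only through this sum. WT DMSO mice had 142 to 174 CPM.

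The other 9 polyglutamine disease genes, whose human forms cause disease when their repeat expands, had small fold changes as well. None of the 10 had an unadjusted p under 0.05 in either fit. In the fit without 409 and 411 their log2 fold changes ran from -0.10 to 0.16 with a median of 0.02, and all 10 intervals lay within 1.5-fold. Htt, the huntingtin gene, had 448, 551, 526 and 503 CPM under Hit 2 and 509 and 484 CPM in vehicle libraries 420 and 429. Library 409 had 750 CPM of Htt and 411 had 396 CPM, outside the range of the other 6. Atn1, encoding atrophin-1, was the only member whose groups did not overlap. It had 8.05, 8.30, 8.88 and 8.45 CPM under Hit 2 against 11.9, 8.98, 9.02 and 8.97 CPM under DMSO, a log2 fold change of -0.21 (standard error 0.16) with all libraries and -0.10 (standard error 0.14) without 409 and 411. Such non-overlap in the lower direction held for 0.392% of all genes with all libraries and for 5.41% without 409 and 411. In either direction it held for 1.03% and 11.9% of genes.

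Among genes with long CAG runs, the median fold change of those with 10 or more units depended on the vehicle libraries used. Of 205 genes with a run of at least 7 units, 125 passed the filter on low counts without 409 and 411. Their median log2 fold change was 0.00, against 0.01 for the 17069 genes with at most 2 units. At an unadjusted p under 0.05, 3 were higher (2.40%) and 3 lower (2.40%), near the 2.1% and 1.62% of all genes. Genes with 10 or more units had a median of 0.07 (42 genes), and those with 7 to 9 units -0.01 (83 genes). With all vehicle libraries the median at 10 or more units was -0.21 (41 genes), at 7 to 9 units -0.01 (83 genes), and at most 2 units -0.04 (16396 genes). CTG runs, counted the same way, gave 0.06 for 59 genes with at least 7 units, 4 higher and 2 lower. The CAG median at 7 or more units with all vehicle libraries was -0.06 (124 genes), with 2 higher and 0 lower, against 0.753% and 0.8% of all genes. Those 2 were Sec24b (15 units) at 0.23 and Dap (11 units) at 0.43. Without 409 and 411 they were at 0.13 and 0.24.

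**Figure D2:**
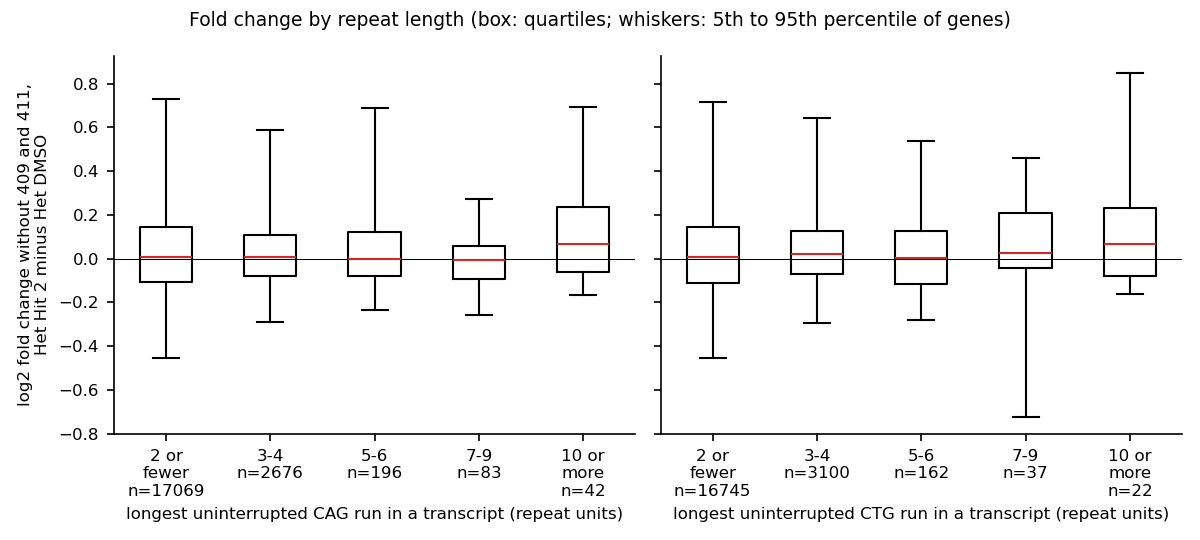
Log2 fold change of Het Hit 2 minus Het DMSO without 409 and 411 (vertical axis) by the longest uninterrupted CAG run (left) or CTG run (right) in a gene's transcripts, in repeat units. Boxes give quartiles, whiskers the 5th to 95th percentile of genes and n the genes tested, and the medians lie between -0.01 and 0.07 in every bin.

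Coding runs in well expressed genes allowed the narrowest reading. In the same fit, 43 genes had a coding run of at least 7 units and at least 100 CPM. Their median log2 fold change was -0.04, with 27 below 0 and 16 above, and 42 of the 43 intervals lay within 1.5-fold. Of all genes in this fit, 52.3% were above 0. The share among other genes of at least 100 CPM was not examined. Kmt2d, a histone methyltransferase, had 821, 1057, 1077 and 921 CPM against 1004 and 1053 CPM in 420 and 429, a log2 fold change of -0.09 (interval -0.34 to 0.17). Gigyf2, a translational regulator, had 165, 174, 174 and 158 CPM under Hit 2, 181 and 176 CPM in 420 and 429 and 133 and 150 CPM in 409 and 411, a log2 fold change of -0.09 (interval -0.24 to 0.06) without 409 and 411. The ranges overlapped for Kmt2d, while all Hit 2 values of Gigyf2 lay below 420 and 429 and above 409 and 411.

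Atrx and Bmp6 were among the 3 genes with at least 7 units that were lower at an unadjusted p under 0.05 without 409 and 411. Atrx, a chromatin remodeller, had 322, 346, 369 and 353 CPM under Hit 2 against 396 and 410 CPM in 420 and 429, and 53.4 and 181 CPM in 409 and 411. Its log2 fold change was -0.22 (standard error 0.08) without and 0.42 (standard error 0.44) with the doubted libraries. Bmp6, a growth factor of the bone morphogenetic protein family, had 14.5, 9.24, 9.54 and 9.38 CPM against 15.3 and 17.8 CPM in 420 and 429 and 13.3 and 5.25 CPM in 409 and 411, a log2 fold change of -0.64 (standard error 0.23) without 409 and 411 and -0.28 (standard error 0.32) with them. The 3 higher genes were Fam155a (0.22), Kcnh3 (1.15, under 1 CPM in every knock-in library) and the gene model Gm45804 (0.44), named after their values were seen. With all libraries they were at 0.16, 0.35 and 0.00 in that order. No adjusted p of these genes in edgeR was under 0.898.

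**Figure D3:**
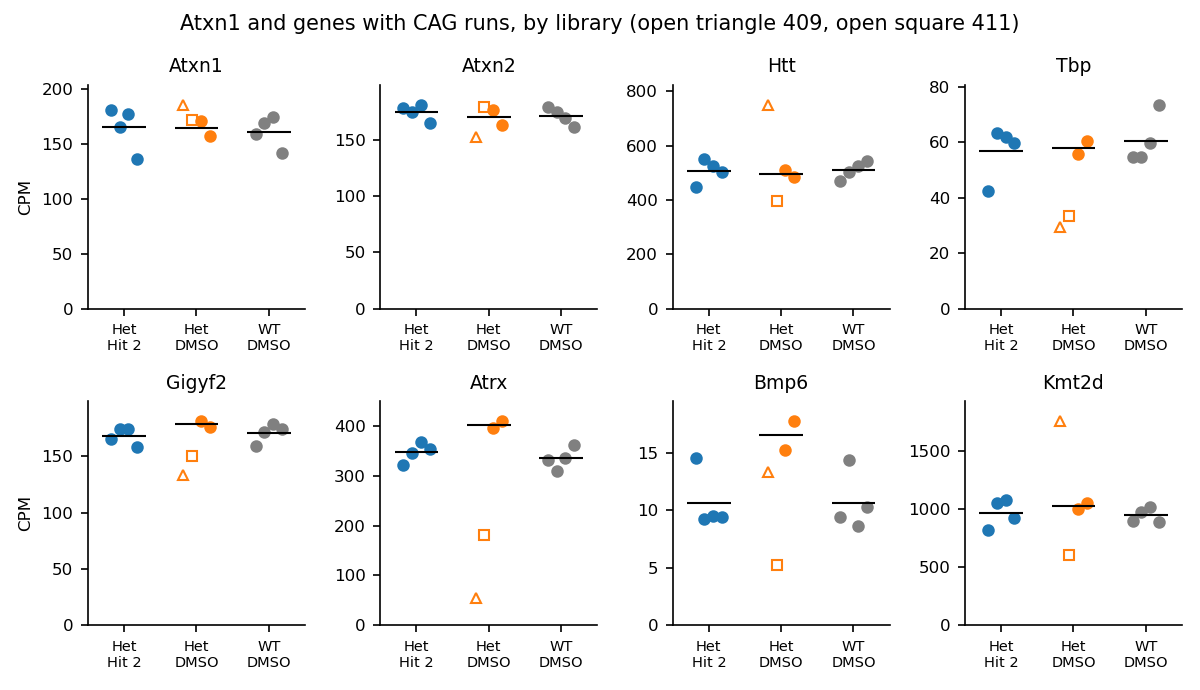
CPM (vertical axis, from 0) of Atxn1, Atxn2, Htt, Tbp, Gigyf2, Atrx, Bmp6 and Kmt2d in each library, by group, with the mean of each group as a line that leaves out 409 (open triangle) and 411 (open square). Gigyf2 and Atrx lie lower in the 4 Hit 2 libraries than in 420 and 429, while 409 and 411 lie lower still.

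Muscleblind and CELF splicing factors, which bind CUG and CAG repeat RNA or oppose one another in splicing, had a median log2 fold change of -0.03 over 8 members tested without 409 and 411 and 0.04 with all libraries, with none at an unadjusted p under 0.05. Mbnl2 had 262, 239, 242 and 235 CPM under Hit 2 and 245 and 251 CPM in 420 and 429. The 10 mismatch repair genes, which act on repeat length in DNA, had medians of 0.00 and 0.08 and likewise none at that bound. Msh3 differed by -0.02 (standard error 0.12).

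Capicua and the genes it represses form the best known route from ataxin-1 to transcription. Of 14 ataxin-1 partners and Capicua targets, 3 were lower and 0 higher at an unadjusted p under 0.05 without 409 and 411, where 1.62% of all genes were lower. Their median was -0.05, and -0.13 with all libraries, where 1 was lower and 0 higher, against 0.8% and 0.753% of all genes. From -0.13 the median went to 0.02 without 409 alone. From -0.05 it went to -0.125 without 429, -0.12 without 422 and -0.01 without 420. Etv5, an ETS transcription factor and Capicua target, had 60.2, 56.4, 59.4 and 41.3 CPM under Hit 2 against 84.6 and 66.1 CPM in 420 and 429, with 106 CPM in 409 and 40.1 CPM in 411. All 4 Hit 2 values lay below those of 409, 420 and 429 and above that of 411. The log2 fold change was -0.47 (standard error 0.17, edgeR unadjusted p = 0.019) without 409 and 411 and -0.45 (standard error 0.25) with them, and -0.29 when 420 was left out along with 409 and 411.

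Spred1, an inhibitor of Ras signalling, had 141, 135, 133 and 141 CPM under Hit 2 and 151 and 159 CPM in 420 and 429, a log2 fold change of -0.18 (standard error 0.06). Libraries 409 and 411 had 101 and 162 CPM, and with them the fold change was -0.06. Etv1 differed by -0.31 without and 0.32 with those libraries, and Spry4, another inhibitor of receptor signalling, by -0.40 and -0.70. The targets Dusp6, Ccnd1 and Etv4 differed by 0.01, 0.01 and 0.06 without 409 and 411. Capicua itself (Cic) had 330 to 374 CPM under Hit 2 and 377 and 361 CPM in 420 and 429. None of the 14 passed the adjusted threshold in edgeR.

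Genes of Purkinje cell calcium signalling, which ataxin-1 expansion is known to lower, showed no difference past the threshold. Of 16 members tested, 0 had an unadjusted p under 0.05 in either fit. Leaving out 409 and 411, their median log2 fold change was 0.00, their range -0.28 to 0.16, and all 16 intervals lay within 2-fold. With all libraries the median was 0.15, 13 of the 16 were above 0 (44.3% of all genes were), and 11 intervals lay within 2-fold. From 0.15 the median went to -0.22 without 411 alone and 0.36 without 409 alone, and from 0.00 to 0.13 without 410 and -0.12 without 422. Itpr1, the calcium release channel of the endoplasmic reticulum, had 2011, 3703, 3921 and 3149 CPM under Hit 2 and 3504 and 2877 CPM in 420 and 429. The lowest of these 6 values was in Hit 2 library 410. Library 411 had 273 CPM of Itpr1 and 409 had 4659 CPM. Car8, which modulates that channel, had 293 to 674 CPM under Hit 2, 536 and 474 CPM in 420 and 429 and 707 to 855 CPM in WT DMSO, a log2 fold change of 0.00 (interval -0.55 to 0.55). In whole tissue, fewer cells of a type and less RNA per cell cannot be told apart.

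Single genes are given next, those with the smallest p in each fit. With all vehicle libraries the named genes with groups that did not overlap (0.635% of genes higher, 0.392% lower) included Mef2c, a transcription factor of neuronal maturation. It had 35.1, 37.1, 43.1 and 37.0 CPM under Hit 2 and 16.9, 17.7, 31.1 and 28.5 CPM under DMSO. Every Hit 2 library lay above every vehicle library, and 409 and 411 were the lowest. The log2 fold change was 0.70 (standard error 0.20, edgeR adjusted p = 0.898), and 0.35 (standard error 0.13) without 409 and 411.

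In the other direction, Galr1, a galanin receptor, had 2.20, 2.77, 2.94 and 2.72 CPM under Hit 2 against 4.68, 4.75, 3.17 and 5.21 CPM under DMSO, a log2 fold change of -0.74 (standard error 0.21), and -0.66 without 409 and 411, where it was -0.26 without library 429 as well and -0.97 without 420 as well. Slc8a3, a sodium-calcium exchanger, had 97.8, 91.4, 98.6 and 85.8 CPM against 153, 127, 117 and 100 CPM, the log2 fold change moving from -0.41 to -0.22 when 409 and 411 were left out. Ndufc2, a subunit of respiratory complex I, moved likewise from -0.38 to -0.13, Bcs1l, an assembly factor of complex III, from -0.44 to -0.25, and Cyb5d1 from -0.39 to -0.19. In these 4 genes 409 or 411 held the highest vehicle value. Gnrh1, the precursor of gonadotropin-releasing hormone, was low, at 1.22 to 1.58 CPM against 0.640 to 0.808 CPM.

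Without 409 and 411 the leading genes rested on the contrast of 4 Hit 2 libraries with 420 and 429, a layout in which 6.49% of genes were separated with Hit 2 higher and 5.41% with Hit 2 lower. Rasgrf1, a calcium-dependent activator of Ras, had 434, 352, 394 and 398 CPM under Hit 2 and 148 and 178 CPM in 420 and 429. Vehicle library 411, at 593 CPM, lay above all Hit 2 libraries, and 409 had 249 CPM. In WT DMSO mice the values were 446, 243, 216 and 230 CPM. The log2 fold change was 1.27 (standard error 0.27, edgeR unadjusted p = 0.000749, adjusted p = 0.983) without and 0.43 (standard error 0.39) with 409 and 411, and DESeq2 without them gave an adjusted p of 0.00268.

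The long noncoding RNA model Gm26871 had 13.7, 6.13, 7.75 and 9.71 CPM under Hit 2 against 1.06 and 1.50 CPM in 420 and 429, 2.61 CPM in 409 and 25.4 CPM in 411. It overlaps the microRNA gene Mir137 and the model Gm9916 on the same strand in GENCODE M21, so reads shared by them cannot be assigned with certainty. Gm9916 followed the same order, with 2.12 to 3.94 CPM under Hit 2, 0.373 and 0.417 CPM in 420 and 429 and 8.43 CPM in 411. The log2 fold changes without 409 and 411 were 2.83 (standard error 0.56) and 2.92 (standard error 0.61), with them 0.29 and 0.10. DESeq2 without 409 and 411 gave adjusted p-values of 0.000333 and 0.0222. WT DMSO mice had 1.88 to 6.28 CPM of Gm26871.

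Further genes in the same direction were Chst12, a chondroitin sulfotransferase (log2 fold change 0.56, standard error 0.11), Rnf208 (0.32, standard error 0.07), the semaphorin Sema4b (0.51), the transcription factor Onecut2 (0.75), the phosphatase Dusp22 (0.52) and the potassium channel Kcnk2 (0.72). Chst12 had 11.7, 13.5, 11.7 and 12.8 CPM under Hit 2 and 8.59 and 8.26 CPM in 420 and 429, with 13.0 and 15.6 CPM in 409 and 411. In all 6 genes library 411 exceeded both 420 and 429, and with all vehicle libraries the fold changes were 0.13, 0.08, 0.01, 0.48, -0.01 and 0.10 in the order named. In WT DMSO, Chst12 had 11.5 to 12.5 CPM, within the Hit 2 range or just under it.

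Genes with Hit 2 lower than 420 and 429 included the NAD salvage enzyme Nampt (-0.27, standard error 0.07), the prefoldin subunit Vbp1 (-0.40, standard error 0.09), the cell adhesion gene Cdh1 (-0.65), the collagen gene Col5a1 (-0.52) and the peptidase gene Dpp4 (-1.45, at most 3.00 CPM, and -0.51 when both strands were counted). Nampt had 43.2, 42.6, 45.2 and 40.1 CPM under Hit 2 against 53.1 and 50.1 CPM, with 17.1 and 39.7 CPM in 409 and 411. With all vehicle libraries these fold changes were 0.10, -0.04, -0.17, -0.16 and -0.64. None of them was called by edgeR or DESeq2.

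**Figure D4:**
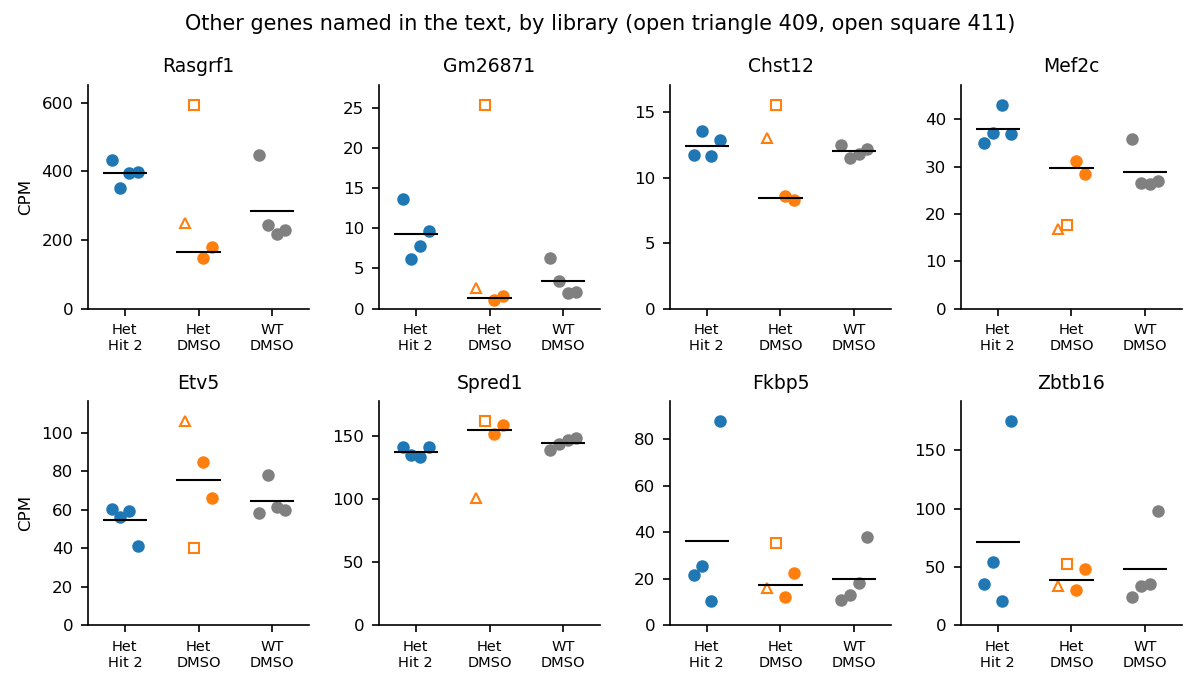
CPM (vertical axis, from 0) of 8 genes in each library, by group, with the mean of each group as a line that leaves out 409 (open triangle) and 411 (open square). Rasgrf1, Gm26871 and Chst12 are higher under Hit 2 than in 420 and 429 but highest in 411, and Fkbp5 and Zbtb16 are high in 1 Hit 2 library.

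Among genes more than 2-fold apart without 409 and 411, Hit 2 library 410 and vehicle library 429 mostly held the highest value of their group, in either direction. Of 584 genes over 2-fold higher, library 410 had the highest Hit 2 value in 414 and 429 exceeded 420 in 400, and 138 had groups that did not overlap, as did 6.49% of all genes in that direction. Of 195 genes over 2-fold lower, 410 had the highest Hit 2 value in 112 and 429 exceeded 420 in 141, and 72 had groups that did not overlap, as did 5.41% of all genes. Genes picked for a large fold change in these same libraries separate more often through that choice. Their counts are therefore not comparable with the shares of all genes. Library 410 also had the highest summed level of choroid plexus genes among the Hit 2 libraries (1688 CPM against 74.3 to 105 CPM in the other 3), and 429 the highest among the vehicle libraries (3032 CPM). The part of tissue composition in these fold changes was not tested.

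Glucocorticoid-responsive genes, which are transcribed through the receptor Nr3c1, gave the highest median of the pathway lists without 409 and 411, 0.31 over 18 members against 0.01 for all genes. It was 0.15 with all libraries. Starting from 0.31, the median was -0.04 without Hit 2 library 430, 0.07 without vehicle library 420, 0.57 without vehicle library 429 and 0.47 without Hit 2 library 422. Library 430 was the highest of the 8 in 12 of the 18 members. Fkbp5, a chaperone induced by the receptor, had 21.7, 25.4, 10.3 and 87.8 CPM under Hit 2 (430 last) against 16.0, 35.3, 12.1 and 22.4 CPM under DMSO. Zbtb16, another target, had 35.4, 53.8, 20.9 and 175 CPM against 33.5, 52.0, 29.8 and 48.3 CPM. For both genes 430 lay above every vehicle library and 422 below every one.

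Cdkn1a, a cell cycle inhibitor induced by p53 and by glucocorticoids, had 8.69, 17.1, 8.23 and 56.4 CPM under Hit 2 against 10.2 to 12.6 CPM under DMSO, again with 430 highest. The metallothionein gene Mt2 reached 181 CPM in 430, against 63.8 to 124 CPM in the other Hit 2 libraries and 35.1 to 107 CPM under DMSO. WT DMSO library 431 had 98.2 CPM of Zbtb16 and 37.9 CPM of Fkbp5, the highest of its group. No member had an unadjusted p under 0.05 in either fit.

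Lists of toxic stress are given by their medians. Without 409 and 411 the median log2 fold change was 0.06 over 17 p53 targets, 0.04 over 18 genes of the integrated stress response, -0.09 over 16 of the unfolded protein response, 0.05 over 14 heat shock genes, 0.05 over 17 NRF2 targets, -0.04 over 10 genes of xenobiotic metabolism and 0.01 over 17 apoptosis regulators. With all libraries, where the median of all genes was -0.04, the same lists had medians of -0.02, -0.05, -0.25, -0.11, -0.05, 0.00 and -0.11. Without 409 and 411, the 7 lists held at an unadjusted p under 0.05 1 higher p53 target (Aen, 0.34), 2 lower genes of the integrated stress response (Atf3, -0.65, and Nupr1, -0.61) and 1 higher gene of xenobiotic metabolism (Por, 0.17), against 2.1% higher and 1.62% lower among all genes. With all libraries they held 0 higher members, 2 lower genes of the unfolded protein response and 1 lower NRF2 target (Txnrd1 of the thioredoxin system, -0.31, and -0.06 without 409 and 411), against 0.753% higher and 0.8% lower among all genes. Atf3 and Nupr1 are stress-induced transcription regulators, and lay at or under 1.67 and 3.48 CPM. Without library 429 as well, Atf3 was at -0.27.

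Atf4, the central factor of the integrated stress response, had 72.7, 81.0, 92.5 and 90.0 CPM under Hit 2 and 80.0 and 85.5 CPM in 420 and 429. Hspa5, the main chaperone of the endoplasmic reticulum, had 160, 116, 128 and 135 CPM under Hit 2, against 133 and 164 CPM in 420 and 429 and 168 and 190 CPM in 409 and 411. In the unfolded protein response 13 of 16 members were below 0 with all libraries, the median running from -0.36 to -0.15 with 1 library left out. Without 409 and 411, 14 of 16 were below 0, and the median of -0.09 went to 0.01 without 429. Of all genes, 44.3% were above 0 with all libraries and 52.3% without 409 and 411. Hyou1 (-0.49) and Pdia6 (-0.42) had an unadjusted p under 0.05 with all vehicle libraries. Both were highest in 409 and 411, and without them differed by 0.02 and -0.10. Liver-type detoxification genes such as Cyp1a1 and Cyp3a11 were below the filter on low counts.

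Inflammation was near the limit of measurement. Cytokine and chemokine genes (Il1b, Tnf, Il6, Ccl2, Ccl3, Ccl4, Ccl5 and Cxcl1) averaged 0.00724 to 0.119 CPM over the 8 libraries and were not tested. The astrocyte filament gene Gfap had 108, 85.2, 59.4 and 97.0 CPM under Hit 2 and 127, 91.2, 67.2 and 87.8 CPM under DMSO. Over 12 tested members the median was 0.08, and over 19 interferon-stimulated genes -0.06, without 409 and 411, with 0 members of either list at an unadjusted p under 0.05. With all libraries the medians were -0.11 and 0.07. Starting from 0.08, the inflammation median was -0.07 without 430 and 0.28 without 422, and the interferon median went from -0.06 to -0.30 without 410 and to 0.00 without 430. Intervals were wide without 409 and 411, within 2-fold for 6 of 12 and 8 of 19 members.

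Immediate early genes, transcribed within minutes of neuronal activity, held 1 higher and 1 lower member of 13 at an unadjusted p under 0.05 without 409 and 411, against 2.1% and 1.62% of all genes, and none passed the adjusted threshold in edgeR. Egr1 had 28.7, 46.9, 48.7 and 72.1 CPM under Hit 2 against 26.5, 33.3, 24.4 and 36.7 CPM under DMSO. The ranges overlapped through Hit 2 library 410. Its log2 fold change was 0.70 (standard error 0.24) with all libraries and 0.68 (standard error 0.30) without 409 and 411, and from there 0.42 without vehicle library 420 and 0.44 without Hit 2 library 430. Nr4a3, an orphan nuclear receptor, had 21.1, 18.1, 13.6 and 23.5 CPM against 34.1 and 37.2 CPM in 420 and 429, 25.8 CPM in 409 and 3.94 CPM in 411, a log2 fold change of -0.92 (standard error 0.23) without 409 and 411 and -0.41 (standard error 0.48) with them. The other members included Fos (-0.47) and Arc (-0.03), and the median over 13 was -0.05, and -0.09 with all libraries. From -0.05 it went to 0.06 without 420 and -0.15 without 429, and from -0.09 to 0.17 without 409 alone and -0.32 without 430 alone. Over 19 clock genes the median was -0.07, and -0.01 with all libraries, with Per2 at -0.25 and Nr1d2 at -0.14.

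Large housekeeping lists showed how much 409 and 411 set the comparison. Cytosolic ribosomal protein genes had a median of -0.13 with all vehicle libraries and 0.04 without 409 and 411 (80 members), nuclear genes of oxidative phosphorylation -0.07 and 0.04 (81 members), and proteasome genes -0.13 and 0.01 (37 members). Library 411 was the highest of the 8 in 67 of the 80 ribosomal protein genes, with a sum of 8181 CPM against 5129 to 6096 CPM in the other 7. Cholesterol synthesis genes moved from -0.22 to 0.00 (23 members). Autophagy and lysosome genes moved from -0.14 to 0.01 (19 members), all 19 intervals then lying within 1.5-fold. The mitochondrial genome had a median of 0.37 with all libraries (21 members) and -0.09 without 409 and 411 (22 members), and 409 was the lowest library in all 22. From -0.09 it went to 0.18 without vehicle library 429 and -0.28 without 420, and from 0.37 to -0.07 without 409 alone.

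Of 11 nuclear long noncoding RNAs tested without 409 and 411, 1 was higher and 1 lower at an unadjusted p under 0.05, against 3.72% of all genes in either direction. Their median was 0.12, and 0.04 with all libraries. From 0.12 it went to 0.04 without library 429, 0.06 without 410 and 0.25 without 420. Malat1 had 15570, 17160, 17270 and 16380 CPM under Hit 2 against 19250 and 19390 CPM in 420 and 429, with 7369 and 10100 CPM in 409 and 411. Its log2 fold change was -0.22 (standard error 0.09), and 0.24 (standard error 0.28) with all libraries. Snhg11 was at 0.38 (standard error 0.12) and Meg3, an imprinted transcript, at 0.24 (standard error 0.11). Of 55 histone genes, most encoding replication-dependent histones, 1 was higher and 1 lower at that bound, against 2.1% and 1.62% of all genes. Their median was -0.06, and -0.17 with all libraries.

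**Figure D5:**
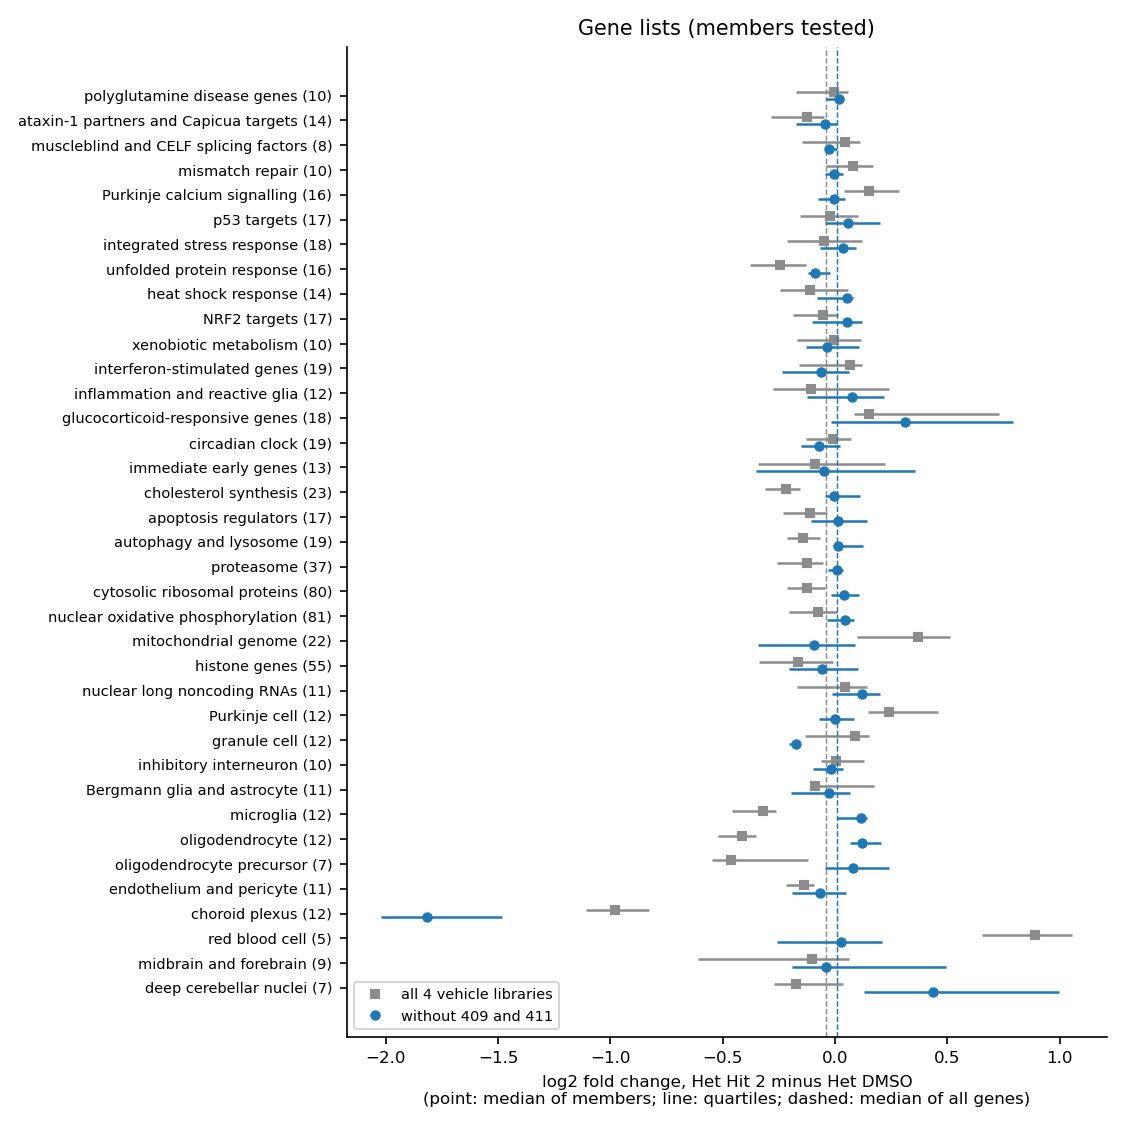
Median log2 fold change of each gene list (points) with the quartiles of its members (lines), Het Hit 2 minus Het DMSO, with all vehicle libraries (grey squares) and without 409 and 411 (blue circles); dashed lines mark the median of all genes and the number of members tested stands in parentheses. Most pathway medians lie within 0.1 of 0 without 409 and 411, where the cell type lists of choroid plexus and deep nuclei lie farthest out.

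Marker sums are given per cell type. Bergmann glia and astrocyte genes summed to 2487 to 2605 CPM under Hit 2 and 2330 to 2784 CPM under DMSO, and oligodendrocyte precursor genes to 478 to 533 CPM and 307 to 670 CPM. The 12 Purkinje cell genes summed to 3947, 6825, 7289 and 6055 CPM under Hit 2 and to 6533 and 5506 CPM in 420 and 429, with 7744 CPM in 409 and 1257 CPM in 411. The median log2 fold change was 0.00 without 409 and 411 and 0.24 with all libraries. From 0.00 it went to 0.18 without 410 and -0.12 without 422, and from 0.24 to -0.04 without 411 alone and 0.45 without 409 alone. The 12 granule cell genes summed to 4171, 6029, 7171 and 4559 CPM against 6426 and 6050 CPM, with 9559 CPM in 409 and 248 CPM in 411, and their median was -0.18 without 409 and 411 and 0.09 with all libraries. Starting from -0.18, it was -0.06 without Hit 2 library 410, -0.35 without 422, -0.08 without 430 and -0.09 without vehicle library 420. Among these, Neurod1, a transcription factor of granule neurons, was at -0.41 (standard error 0.14), with 130, 187, 197 and 163 CPM against 229 and 221 CPM, and Barhl1 at 0.65 (standard error 0.24), or 0.43 without 420 as well. With all libraries they were at 0.21 (standard error 0.78) and 0.19 (standard error 0.32).

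Oligodendrocyte genes summed to 5750, 1875, 1366 and 2185 CPM under Hit 2 and to 1347 and 3591 CPM in 420 and 429, so that library 410 held the highest and 420 the lowest of these 6. Library 411 had 6865 CPM. Their median log2 fold change was 0.12 without 409 and 411 and -0.42 with all libraries, and from 0.12 it went to -0.54 without 410 and 0.92 without 429. Genes of the deep cerebellar nuclei summed to 1824, 1345, 1566 and 1442 CPM under Hit 2, against 1394 and 1501 CPM in 420 and 429 and 989 and 1978 CPM in 409 and 411. Their median was 0.44 without 409 and 411 and -0.17 with all libraries, and from 0.44 it went to 0.03 without 410 and 0.04 without 420. Ttr, the defining product of choroid plexus, had 844, 3.51, 2.51 and 6.62 CPM under Hit 2 and 9.46, 136, 25.7 and 1737 CPM under DMSO. The choroid plexus median was -0.98 with all libraries, -1.82 without 409 and 411, 2.22 when library 429 was left out as well, and -4.23 when 410 was. Microglial genes summed to 92.9 to 182 CPM under Hit 2, 103 and 128 CPM in 420 and 429 and 253 CPM in 411, with a median of 0.12 without 409 and 411 and -0.32 with all libraries. From 0.12 that median went to -0.17 without 410, -0.04 without 420 and 0.24 without 422. The part of these cell type levels in the gene differences above was not tested.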

How the data were processed

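Tables of raw read counts per gene were deposited, 1 per library, in the layout of STAR's gene counts, per the file headers. STAR 2.7.10a, FastQC 0.11.9 and the build GRCm39 are named in the submitters' processing notes, and the annotation release is not given in the sources used here. Libraries were directional and depleted of ribosomal RNA, per the labels' protocols. Column 4, the counts of reads whose second mate lies on the strand of the gene, was used. The 4 summary lines, among them reads outside genes (44.7% to 54.6% of reads), stayed out of library sizes. Symbols and transcripts came from GENCODE M21 (GRCm38), so no coordinates are given.

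All 12 libraries entered 1 edgeR 4.0.16 quasi-likelihood fit (R 4.3.3), with filterByExpr, TMM factors, 1 coefficient per group and no covariate. A second fit left out 409 and 411. CPM use the TMM sizes of the first fit. Tests were two-sided with Benjamini-Hochberg adjustment over all genes, at 0.05. Intervals are at 95%, and standard errors derive from the F statistic. Nothing but the animal number marks replicates, and p-values measure the spread between these animals. The fits were tested on simulated data.

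Named genes were Atxn1, up to 10 per direction by smallest p (at least 1 CPM, groups not overlapping), and per list the 4 highest and the 3 with the smallest p. CAG genes and a few others were named after their values were seen. A gene (H13) matching the histone pattern by name was removed, and 11 of 13 noncoding RNAs matched a symbol. Members and lists were chosen with earlier results of these data known. Alternatives were DESeq2 1.42.0, limma 3.58.1 voom with library weights, and other filters, factors, strands, thresholds and left-out libraries. Results for a few genes are not reported here.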

Additional observations from a re-analysis of the deposited data

Results flagged for a closer look

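In each group of 4, a library was marked where its gap to the nearest of the others was more than Dixon's 95% critical share of the group's range. Over 65 measures (library properties, summed CPM of lists, and CPM of single genes), 13 of 130 groups were marked, and chance marks about 1 in 20. In the vehicle group, library 409 was marked for its mitochondrial share of 0.0795%, its summed mitochondrial genes of 887 CPM and its 11.9 CPM of Atn1. Library 411 was marked for heat shock genes (3578 CPM), cytosolic ribosomal protein genes (8181 CPM), microglial genes (253 CPM) and Gm26871 (25.4 CPM). Library 429 was marked for choroid plexus genes (3032 CPM). In the Hit 2 group, library 410 was marked for choroid plexus genes (1688 CPM) and Bmp6 (14.5 CPM), library 430 for p53 targets (469 CPM, with Cdkn1a at 56.4 CPM), and library 422 for its depth of 43670280 gene reads and for nuclear long noncoding RNAs (25950 CPM against 24960 to 25000 CPM).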

How the results depend on the processing

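With all vehicle libraries, 0 genes were called under every alternative run, and 0 when each knock-in library was left out in turn. Without 409 and 411, DESeq2 called 4 genes (among them Gm26871, Rasgrf1 and Gm9916), and leaving out 1 further library gave 0 to 1. The 1 gene was Gm10800, without Het DMSO 420, when 429 was the only vehicle library and was assumed to vary like the other groups. The cause was not tested. The other alternatives gave 0, also at an adjusted p of 0.1. Unadjusted p-values under 0.05 numbered 87 to 1201 with all libraries and 505 to 1307 without 409 and 411. With 1 library left out, the Atxn1 log2 fold change ranged from -0.12 to 0.01 with all libraries and from -0.06 to 0.09 without 409 and 411. The medians for 7 or more CAG units ranged from -0.09 to 0.04 and from -0.03 to 0.02 likewise. Without 409 and 411, the log2 fold change stayed between 1.14 and 1.41 for Rasgrf1, -0.65 and -0.29 for Etv5 and -1.03 and -0.78 for Nr4a3, and reached 0.11 to 1.39 for Cdkn1a and 0.13 to 1.57 for Fkbp5. Fold changes under 1 CPM are limited by depth. No paired analysis was possible because the groups share no replicate numbers in the labels.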
